A study of Mus musculus with 100 samples.

Results

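The p65 subunit of NFκB was mapped by chromatin immunoprecipitation and sequencing (ChIP-seq) in macrophages grown from mouse bone marrow (BMDMs). The peaks described here are those that had no partner peak of the macrophage factors PU.1 or Fosl2 nearby. A p65 peak was taken when no peak centre of the PU.1 or Fosl2 tables lay within 1000 bp of its own centre. This gave 14293 of 52629 p65 peaks. Of the other p65 peaks, 9513 had a PU.1 peak alone within that distance, 5761 a Fosl2 peak alone and 23062 both. The rule used positions only, and no tag count of any library entered it.

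The study asked how signalling from Toll-like receptor 4 (TLR4) changes the binding of the corepressor NCoR and its deacetylase HDAC3 in macrophages. BMDMs from C57BL/6 mice of 8 to 12 weeks were given Kdo2 lipid A (KLA), a lipid that activates TLR4, for 6 h, or vehicle (Veh). Binding of p65, PU.1, Fosl2, NCoR, HDAC3, the acetyltransferase p300, the coactivator PGC1β and the kinase ERK1 was profiled in Wild type cells, with 2 libraries for Veh and 2 for KLA. Acetylation of histone H3 at lysine 27 (H3K27ac) was profiled in 3 further experiments. The first compared NCoR flox/flox cells, which the study calls WT, with NCoR flox/flox, LysMCre cells (NKO), each with Veh and with KLA. The second used Wild type cells given DMSO and Veh, DMSO and KLA, or KLA with RGFP966, an inhibitor of HDAC3. The third compared PGC1b flox/flox cells with PGC1b flox/flox, LysMCre cells, each with Veh and with KLA. Of the Veh groups in these H3K27ac experiments, only DMSO and Veh is labelled with a time (6 h). Among the factors, the Veh libraries of p65, PU.1, Fosl2, NCoR and HDAC3 are labelled 6 h. Those of PGC1β and ERK1 carry no time. The p300 Veh libraries are labelled with an earlier time than the p300 KLA libraries (6 h), so by the labels this comparison is not matched in time. LysM-Cre is active in myeloid cells, and how completely the floxed alleles were lost cannot be read from ChIP-seq tags. The floxed control groups carry the floxed alleles without Cre and are not unmodified animals.

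NFκB p65 is held in the cytoplasm of resting cells by inhibitor proteins of the IκB family. TLR4 signalling removes the inhibitors, and p65 then enters the nucleus and binds inflammatory genes. PU.1 is the factor that sets up most macrophage enhancers, Fosl2 is a member of the AP-1 family, and signal-dependent factors such as p65 are known to bind largely at sites that such factors have already opened. p300 acetylates histones, including H3 at lysine 27, while NCoR and HDAC3 form a complex best known for deacetylation.

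DNA of peaks where p65 rose most clearly with KLA is printed to show which of them carry the sequence that NFκB proteins recognise. Each line holds 100 bases around the centre of 1 peak, from the + strand of mm10, named by the nearest gene. Capitals mark matches to a broader NFκB consensus on either strand. The peaks at Cfb, H2al1j, Foxp4, Aoah, Crkl and Gm5544 are the 6 with the lowest p-values for a rise, and those at Nfkbiz and Irak3 are among the up to 3 peaks with the most KLA tags in their gene lists.
Cfb, chr17:34862609-34862708: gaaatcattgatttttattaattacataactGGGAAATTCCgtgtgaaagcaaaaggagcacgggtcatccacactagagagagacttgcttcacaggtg
H2al1j, chrX:11665794-11665893: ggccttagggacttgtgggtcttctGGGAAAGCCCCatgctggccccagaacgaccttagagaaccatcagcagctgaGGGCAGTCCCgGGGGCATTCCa
Foxp4, chr17:47919048-47919147: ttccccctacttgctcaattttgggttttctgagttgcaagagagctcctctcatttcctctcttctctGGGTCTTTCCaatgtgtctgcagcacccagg
Aoah, chr13:20915280-20915379: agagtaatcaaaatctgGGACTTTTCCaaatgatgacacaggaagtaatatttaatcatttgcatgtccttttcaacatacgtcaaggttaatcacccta
Nfkbiz, chr16:55778643-55778742: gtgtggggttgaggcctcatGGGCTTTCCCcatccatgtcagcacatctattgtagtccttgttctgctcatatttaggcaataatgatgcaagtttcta
Crkl, chr16:17467844-17467943: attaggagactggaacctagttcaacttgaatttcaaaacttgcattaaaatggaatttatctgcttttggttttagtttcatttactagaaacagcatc
Gm5544, chr3:97947707-97947806: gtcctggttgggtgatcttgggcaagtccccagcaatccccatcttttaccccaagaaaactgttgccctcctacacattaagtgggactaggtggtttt
Irak3, chr10:120177312-120177411: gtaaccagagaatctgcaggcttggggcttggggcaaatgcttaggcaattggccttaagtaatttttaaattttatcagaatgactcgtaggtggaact

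The Cfb peak holds 1 match, which also fits the stricter NFκB consensus used below, and the H2al1j peak holds 4 matches, of which 2 fit the stricter form. Foxp4, Aoah and Nfkbiz hold 1 match each, to the broader form only. Crkl, Gm5544 and Irak3 hold no match in these 100 bases, which says only that those letters are not in the window. The broader form is common. In windows of 200 bp it was in 24.7% of the peaks lacking PU.1 and Fosl2 and 21.2% of all p65 peaks. It was in 13.2% of PU.1 peaks with no p65 peak within 1000 bp. Of the peaks lacking PU.1 and Fosl2, 26.9% of those that rose and 17.1% of those that fell held it. The Aoah window also holds 1 copy of the octamer ATGCAAAT, the site of POU-domain factors, on the − strand.

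A pair of promoter peaks where p65 fell is printed beside them, with capitals for the GC box GGGCGG on either strand, the site of Sp/KLF proteins.
Ier5l, chr2:30474208-30474307: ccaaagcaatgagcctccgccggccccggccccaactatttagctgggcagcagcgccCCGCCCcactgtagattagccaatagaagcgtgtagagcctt
Ythdf1, chr2:180920980-180921079: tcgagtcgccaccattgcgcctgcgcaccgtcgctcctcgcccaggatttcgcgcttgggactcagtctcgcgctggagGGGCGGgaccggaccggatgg

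Both windows hold 1 GC box and neither holds the stricter NFκB consensus. They come from the peaks with the lowest p-values for a fall. The windows at the others of that set, the Kifap3 promoter and the Sp3 peak, hold 0 GC boxes. The p65 values of all these peaks are given with the other named peaks.

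p65 peaks lacking PU.1 and Fosl2 were mostly far from transcription start sites (TSSs). Of the 14293 peaks, 45.1% lay in introns, 39.1% between genes, 11.3% in promoters, 3.02% in exons and 1.41% at transcription ends. Peaks more than 2 kb from a TSS, called distal here, made up 82.1%, against 69.6% with PU.1 only, 84.3% with Fosl2 only and 82.5% with both. The median distance to the nearest PU.1 or Fosl2 centre was 6331 bp (quartiles 2643 and 16671 bp), and 5303 peaks (37.1%) were more than 10 kb away from any. At the edge of the rule, the 311 peaks with their nearest centre 1000 to 1100 bp away had median p65 values of 7.88 and 9.32 tags per 10 M (tags counted in the peak, scaled to a library of 10 M tags) in the Veh libraries and 30.1 and 31.5 in the KLA libraries. For the 338 peaks just outside it (900 to 1000 bp) the values were 7.88, 9.32, 27.4 and 30.8.

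The peaks were spread over 7246 nearest genes, of which 4211 had 1 peak and 534 had 5 or more. The lncRNA gene 1700019E08Rik was nearest to 30, of which 25 rose with KLA, and Trps1, which encodes a GATA-type repressor, to 24, of which 22 rose. Edn1, which encodes the vasoconstrictor peptide endothelin-1, was nearest to 17, and 17 of them rose. Nr3c1, which encodes the glucocorticoid receptor, was nearest to 19, of which 14 rose and 2 fell. No repeat was annotated at 76.9% of the peaks, while 8.54% lay in an LTR element, 7.89% in a LINE and 3.76% in a SINE. Among peaks with both PU.1 and Fosl2 these shares were 82.3%, 7.58%, 5.37% and 2.77%.

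The peaks were weak, above all in resting cells. The median p65 signal was 5.25 and 5.59 tags per 10 M in the Veh libraries and 26.05 and 28.05 in the KLA libraries. Both KLA libraries stood above both Veh libraries. With PU.1 only the 4 medians were 18.4, 20.5, 31.4 and 34.9, with Fosl2 only 9.63, 10.3, 56.8 and 60.9, and with both 29.8, 33.6, 64.8 and 71.1. The peaks lacking PU.1 and Fosl2 had the lowest median of the 4 classes in each of the 4 libraries. When all p65 peaks were divided into quartiles by mean p65 signal, 8069 of the 14293 (56.5%) fell into the weakest quartile and 409 (2.86%) into the strongest, which held 44.6% of the peaks with both factors. They held 10.8% and 10.4% of all tags in p65 peaks with Veh, and 13.4% and 13.3% with KLA.

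**Figure D1:**
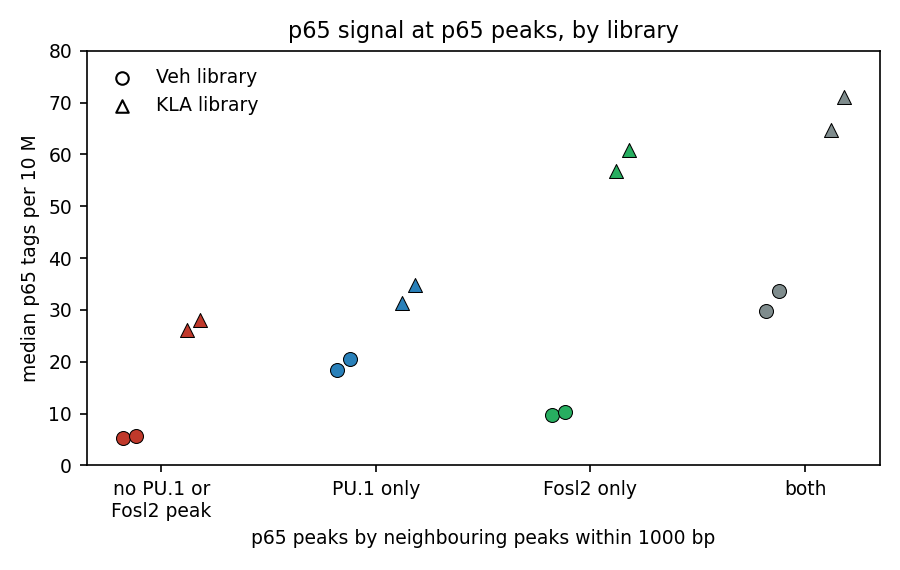
Median p65 tags per 10 M (vertical axis) over the p65 peaks of each class (horizontal axis), with 1 circle per Veh library and 1 triangle per KLA library. The peaks with no PU.1 or Fosl2 peak within 1000 bp lie lowest in both conditions, at 5.25 and 5.59 with Veh and 26.05 and 28.05 with KLA.

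Most of these peaks were found with KLA alone. By the peak lists of the study, 80.7% came from the KLA list only, 15.5% from the Veh list only and 3.74% from both, against 52.1% from the KLA list only and 38.6% from both lists where PU.1 and Fosl2 were both present. A peak called in 1 condition only had to be high in that condition, so its change with KLA is in part set by how it was found.

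p65 rose with KLA at 10049 of the 14293 peaks and fell at 1042, by edgeR's quasi-likelihood test at an adjusted p below 0.05 and over 2-fold. The rises were 70.3% of the peaks, beside 57.0% of all p65 peaks tested, and the falls 7.29%, beside 5.43%. The median log2 fold change was 2.55, against 1.46 over all p65 peaks. For peaks with PU.1 only 38.4% rose, with Fosl2 only 74.0% and with both 52.1%. With TMM scaling, which sets most peaks level between libraries, 5990 rose (41.9%) and 2428 fell (17.0%), beside 27.6% and 21.3% of all p65 peaks, and the median was 1.34 against 0.24. The share of a library's tags that lay in p65 peaks was 12.7% and 14.4% with Veh and 34.1% and 37.1% with KLA, and the part of this difference in the calls was not tested. Without KLA replicate 1 the test called 4424 higher and 83 lower, and without KLA replicate 2 it called 3949 and 115. No tag was counted in either Veh library at 1411 of the peaks, and the median with these set to the floor of 3 tags was 2.55, which is no sign of stability, since peaks in the upper tail cannot move it.

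The change with KLA differed by position. Distal peaks rose at 9268 of 11730 places (79.0%) and fell at 581 (4.95%), with a median log2 fold change of 2.88, beside 63.8% and 3.69% of all distal p65 peaks. Peaks within 2 kb of a TSS rose at 781 of 2563 places (30.5%) and fell at 461 (18.0%), with a median of -0.10, beside 29.2% and 12.5% of all proximal p65 peaks, and with TMM scaling 382 of them rose and 1392 fell. The share of rises was higher at distal than at proximal peaks in each of the other 3 classes too. The distal peaks that rose had medians of 2.63 and 2.80 tags per 10 M with Veh and 30.1 and 32.2 with KLA. The proximal peaks that fell had medians of 28.9 and 29.8 with Veh and 8.01 and 9.58 with KLA. Of these peaks, 70.9% lay in promoters. Proximal peaks that were not called were alike at rest, with Veh medians of 28.9 and 31.7, and 76.8% lay in promoters. What set the falls apart from the uncalled proximal peaks was not tested. The calls rest on the same p65 counts as these medians. From the weakest to the strongest quartile, 69.3%, 74.6%, 67.3% and 61.9% of the peaks rose. Among the 535 peaks on both lists, 127 rose (23.7%) and 20 fell (3.74%), with a median of 0.26. Of those on the KLA list only, 9919 of 11537 rose (86.0%), and of those on the Veh list only, 1018 of 2221 fell (45.8%).

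**Figure D2:**
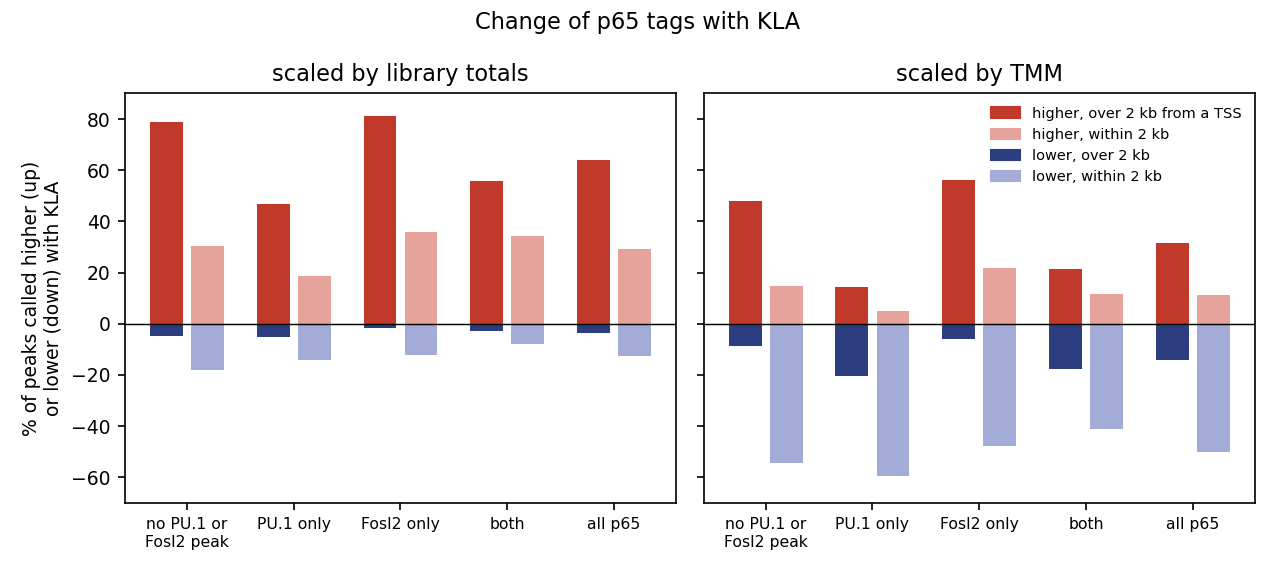
Share of p65 peaks called higher (bars above 0) or lower (bars below 0) with KLA, in percent, for each class of peaks and for all p65 peaks, with library totals (left) or TMM (right) as the scale. Dark bars are peaks over 2 kb from a TSS and pale bars those within 2 kb. Distal peaks lacking PU.1 and Fosl2 rose in 79.0% of cases on library totals and proximal ones in 30.5%.

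Sequence was searched in 200 bp around each centre, on both strands, for 14292 peaks on the reference chromosomes. The strict NFκB consensus was found in 10.8% of the peaks (95% interval 10.3 to 11.4%), against 7.61% of all p65 peaks, 6.004% with PU.1 only, 8.68% with Fosl2 only and 6.001% with both. It was found in 1.21% of PU.1 peaks that had no p65 peak. Of the peaks where p65 rose 13.6% held it, and of those where p65 fell 2.50%. Among distal peaks that rose the share was 13.1% without PU.1 and Fosl2 and 8.42% for the other p65 peaks, and among proximal ones it was 19.1% and 14.4%. These intervals and shares cover counting error only, and a match is not evidence of binding.

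Other sites searched included those of AP-1, PU.1, C/EBP, interferon regulatory factors (IRFs), Sp/KLF and CTCF. The AP-1 site TGANTCA was in 2716 of the 14292 peaks (95% interval 18.4 to 19.7%), against 37.2% with Fosl2 only and 21.7% of all p65 peaks. The PU.1 core GAGGAAG was in 12.4%, against 29.2% with PU.1 only and 21.97% of all. The C/EBP site TTGCNNAA was in 18.5% (16.9% of all). The GC box was in 10.4% (11.3% of all), and its share was 51.8% at proximal peaks that fell, 59.4% at those not called and 14.5% at those that rose. The other proximal p65 peaks had like shares, at 53.2%, 49.4% and 14.5%. The CTCF consensus was in 0.79% of the peaks, with 2.76% of the distal peaks that fell and 0.31% of the distal peaks that rose. The median GC content was 44.0% over all of them, 42.5% where p65 rose and 66.5% at proximal peaks where it fell.

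The strongest of these peaks, by mean p65 signal over the 4 libraries, were promoters and exons bound at rest together with a few induced sites. Values are tags per 10 M, in the order Veh 1, Veh 2, KLA 1 and KLA 2, and they are counted per peak, not per length. At the promoter of Ralgapb, a subunit of the GTPase-activating complex for RalA, p65 was at 207, 280, 91.5 and 112 (chr2:158409662-158409874), and at the promoter of Ythdf1, a reader of N6-methyladenosine in mRNA, at 179, 248, 64.1 and 63.6 (chr2:180920922-180921136). In both the Veh libraries were high and did not overlap the KLA libraries. Ralgapb fell by 1.26 ± 0.23 on the log2 scale (SE, adjusted p = 0.000699, edgeR) and Ythdf1 by 1.74 ± 0.24 (adjusted p = 0.000119). In an exon of Brd2, a reader of acetylated histones, the values were 156, 227, 124 and 122, and the change of -0.64 was not past the 2-fold limit. The promoter peak of Trp53, which encodes p53, had 126, 145, 114 and 144, so that the groups overlapped (log2 fold change -0.08, adjusted p = 0.777).

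Among the same 8, an intron of Lpl and a site near Slc29a2 were induced. The Lpl peak (chr8:68886661-68886977), in the gene for the lipase of circulating triglycerides, had 29.8, 26.1, 258 and 309, and it rose by 3.34 ± 0.25 on the log2 scale (adjusted p = 2.11e-06). The peak between genes near Slc29a2, a nucleoside transporter, had 11.4, 15.8, 234 and 272 and rose by 4.21 ± 0.29 (adjusted p = 1.37e-06). Both KLA libraries were several times above both Veh libraries at each. The promoter of the phosphatase gene Ptpn23 had 90.2, 93.2, 194 and 213 (log2 fold change 1.15 ± 0.21, adjusted p = 0.000784), and with TMM scaling its change was -0.08. An exon of Jund, an AP-1 gene, had 130, 135, 202 and 200, and its change of 0.61 did not pass the limit and turned to -0.62 with TMM.

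The 6 peaks with the clearest rise were almost empty at rest. In an intron of Crkl, an adaptor of kinase signalling, p65 was at 1.75, 1.86, 225 and 205 (chr16:17467793-17467994), a log2 fold change of 6.82 ± 0.40 (adjusted p = 7.91e-07). The peak nearest to H2al1j, 338021 bp from its TSS, had 1.75, 3.73, 208 and 237 (chrX:11665732-11665955) and rose by 6.31 ± 0.39 (adjusted p = 8.76e-07). At the other 4 the Veh libraries together held 1 or 2 tags, so the ratio of KLA to Veh is given with its counting interval. At the promoter of Cfb, which encodes complement factor B, the values were 0.876, 0, 180 and 216 (ratio 438, 95% interval 78.3 to 17324). The Gm5544 intron had 0.876, 0, 183 and 194 (ratio 418, 74.7 to 16526) and an intron of Foxp4, a forkhead factor, 0.876, 0.932, 170 and 162 (ratio 184, 50.7 to 1525). An intron of Aoah, the enzyme that inactivates lipopolysaccharide by removing its acyl chains, had 0.876, 0, 174 and 183 (ratio 396, 70.8 to 15669).

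The 4 clearest falls were at Kifap3, Ier5l, Sp3 and Ythdf1. At the promoter of Kifap3, a kinesin-associated protein, p65 was at 208, 189, 54.8 and 41.7 (chr1:163779407-163779652; log2 fold change -2.04 ± 0.25, adjusted p = 4.46e-05). At the promoter of the immediate early response gene Ier5l it was at 60.4, 91.4, 7.35 and 7.53 (chr2:30474157-30474358; -3.33 ± 0.44, adjusted p = 7.94e-05). Both Veh libraries were above both KLA libraries at each. A peak at -25378 bp from the TSS of Sp3, a GC box factor, had 35.0, 38.2, 0.668 and 1.37, with 3 tags in the KLA libraries together (ratio of KLA to Veh 0.0277, interval 0.0056 to 0.0839).

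**Figure D3:**
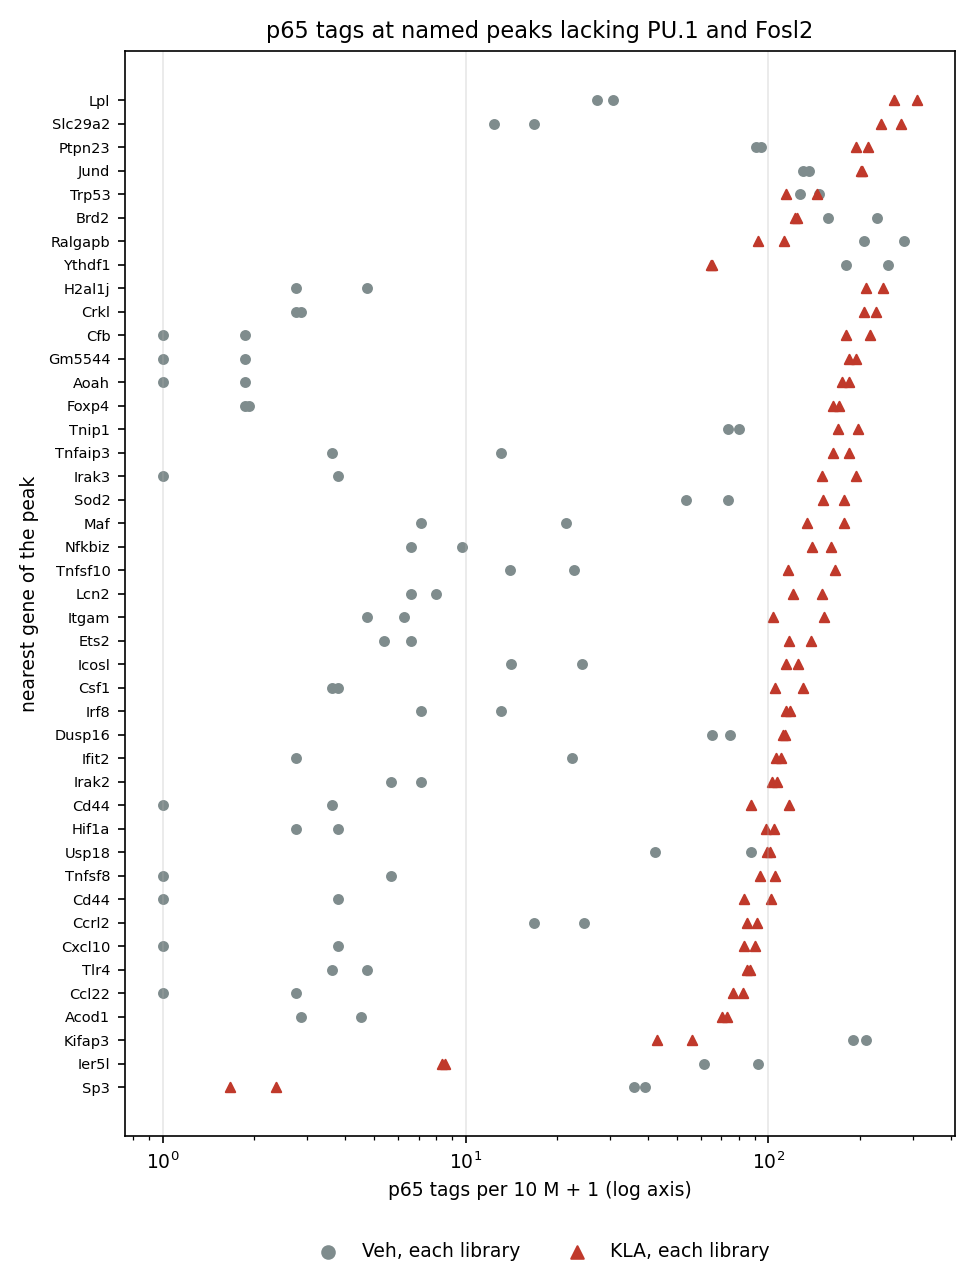
p65 tags per 10 M plus 1 (horizontal log axis) at the named peaks lacking PU.1 and Fosl2, each named by its nearest gene (vertical axis), with grey circles for the Veh libraries and red triangles for the KLA libraries. The induced peaks, such as Cfb with 0.876 and 0 against 180 and 216, lie near the left edge with Veh, and Ralgapb, Ythdf1, Kifap3, Ier5l and Sp3 have both circles to the right of both triangles.

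Peaks nearest to inflammatory genes mostly rose. The shares are to be read beside the 70.3% of all peaks lacking PU.1 and Fosl2 and the 57.0% of all p65 peaks that rose, and the lists were not tested against other genes. For NFκB subunits, inhibitors and regulators, 21 of 32 genes had such a peak, and 71 of their 79 peaks rose and 0 fell, with a median log2 fold change of 2.79. Chemokines and their receptors had 41 peaks at 19 of 33 genes, of which 39 rose and 0 fell (median 3.07). Cytokines and the TNF family had 87 at 22 of 36 genes, of which 78 rose and 1 fell (median 3.94). The Toll-like receptor pathway had 44 at 15 of 29 genes, of which 37 rose and 0 fell (median 2.80).

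The other lists held more mixed peaks. Adhesion and costimulation had 40 peaks, of which 32 rose and 2 fell, survival and stress response 90, of which 70 rose and 2 fell, and eicosanoid, nitric oxide and metabolic effectors 44, of which 36 rose and 1 fell. The interferon response list had 42, of which 31 rose and 1 fell. The macrophage lineage list had 76, of which 53 rose (69.7%) and 4 fell, close to the 70.3% of all such peaks.

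Within the NFκB list the strongest peaks with KLA lay at genes for regulators of the pathway. The promoter of Tnfaip3, which encodes the deubiquitinase A20, had 2.63, 12.1, 163 and 183 tags per 10 M (log2 fold change 4.56 ± 0.44, adjusted p = 9.34e-06). A peak 43446 bp from Nfkbiz, which encodes the nuclear IκB family member IκBζ, had 8.76, 5.59, 138 and 160 and lay in a LINE of the Lx9 family (chr16:55778592-55778793; 4.35 ± 0.36, adjusted p = 3.97e-06). In both, the KLA libraries stood far above the Veh libraries. In an exon of Tnip1, a partner of A20, p65 was already at 72.7 and 79.2 with Veh and at 168 and 197 with KLA (1.27 ± 0.23, adjusted p = 0.000643), and the change was 0.04 with TMM.

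Among chemokine and cytokine genes the peaks were low at rest. An intron peak nearest to Cxcl10, the ligand of CXCR3, lay in an LTR element of the RLTR13D2 family and had 0, 2.80, 89.5 and 82.1 (3 Veh tags in all, ratio 63.4, interval 21.4 to 309). The peak at -5671 bp from the TSS of Ccl22, the ligand of CCR4, had 1.75, 0, 81.5 and 75.3 (2 Veh tags, ratio 86.8, interval 23.8 to 721). At Csf1, which encodes macrophage colony-stimulating factor, the values were 2.63, 2.80, 104 and 129 (log2 fold change 5.38 ± 0.45). In each of the 3 the Veh and KLA libraries did not overlap. The peak near Tnfsf8, the CD30 ligand, had 0, 4.66, 92.8 and 104 (5.38 ± 0.63), and the one at -46757 bp from Tnfsf10, which encodes TRAIL, had 21.9, 13.1, 115 and 165 (2.99 ± 0.36). In an exon of the chemerin-binding receptor gene Ccrl2 the values were 23.6, 15.8, 90.8 and 84.1 (2.14 ± 0.35), a rise that was not called with TMM (0.91).

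In the Toll-like receptor list, an intron of Irak3, the kinase-dead inhibitor of the pathway, had 0, 2.80, 149 and 193 (chr10:120177255-120177468; 3 Veh tags, ratio 126, interval 42.9 to 613). An intron of Irak2 had 6.13, 4.66, 102 and 105 (log2 fold change 4.23 ± 0.41). The peak assigned to Tlr4 had 2.63, 3.73, 84.1 and 86.2 (4.71 ± 0.47), but its TSS is 565158 bp away. The rise was present in both KLA libraries at all 3.

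Of the adhesion and survival genes, the peak near Icosl, a ligand of the T cell receptor ICOS, had 13.1, 23.3, 124 and 114 (2.71 ± 0.35). A pair of peaks at Cd44, the hyaluronan receptor, each had 3 Veh tags and ratios of 74.9 (interval 25.4 to 365) and 67.6 (22.9 to 330). The peak near Hif1a, the hypoxia factor, had 1.75, 2.80, 97.5 and 103 (5.41 ± 0.48). At the promoters of Sod2, the mitochondrial superoxide dismutase, and Dusp16, a phosphatase of MAP kinases, p65 was bound at rest. Sod2 had 52.5, 72.7, 151 and 177 (1.39 ± 0.26, but 0.17 with TMM), and Dusp16 had 63.9, 73.6, 111 and 112 and was not called (0.70, or -0.52 with TMM).

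Of the effector genes, the promoter of Lcn2, which encodes the siderophore-binding lipocalin, had 7.004, 5.59, 120 and 150 (4.39 ± 0.38, adjusted p = 4.95e-06). The peak at -4070 bp from the TSS of Acod1, the enzyme that makes itaconate, had 3.502, 1.86, 72.1 and 69.1 (4.66 ± 0.52). Among interferon genes, the peak at -31938 bp from Irf8 had 6.13, 12.1, 114 and 117 (3.66 ± 0.39) and that at Ifit2 1.75, 21.4, 109 and 105 (3.22 ± 0.58). The promoter of Usp18, the ISG15 protease, had 41.1, 86.7, 100 and 97.8 and was not called (0.64, or -0.57 with TMM). In the macrophage lineage list the peaks with the most KLA tags lay in repeats. Those were Maf (an LTR element of the MER57E1 family, 6.13, 20.5, 134 and 177), Itgam (LINE, 5.25, 3.73, 102 and 152) and Ets2 (LINE, 4.38, 5.59, 116 and 137), with log2 fold changes of 3.55 ± 0.42, 4.79 ± 0.44 and 4.64 ± 0.40.

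Corepressor and coactivator peaks were matched to p65 peaks when their centres lay within 500 bp. An NCoR peak was near 44.9% of the peaks lacking PU.1 and Fosl2 (95% interval 44.1 to 45.7%), an HDAC3 peak near 37.5% (36.8 to 38.3%), a p300 peak near 62.2% (61.4 to 63.0%), a PGC1β peak near 18.9% (18.3 to 19.6%) and an ERK1 peak near 11.6% (11.1 to 12.2%). Where both PU.1 and Fosl2 were present these shares were 94.1%, 92.9%, 94.8%, 75.6% and 67.8%. With PU.1 only they were 72.6%, 67.7%, 73.4%, 41.5% and 31.6%, and with Fosl2 only 83.1%, 79.1%, 89.6%, 54.3% and 42.6%. For each of the 5 factors the share was the lowest of the 4 classes. The intervals cover counting error only, and the shares were not tested otherwise.

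Strength went along with the shares. From the weakest to the strongest quartile of p65 signal, an NCoR peak was near 29.6%, 58.7%, 73.3% and 86.6% of the peaks lacking PU.1 and Fosl2, an HDAC3 peak near 21.5%, 51.1%, 69.0% and 84.8%, and a p300 peak near 51.9%, 73.1%, 79.2% and 83.6%. For PGC1β the shares were 11.4%, 24.3%, 34.8% and 45.7% and for ERK1 4.99%, 15.6%, 26.04% and 40.3%. In every quartile and for each of the 5 factors the share was below that of the other 3 classes.

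**Figure D4:**
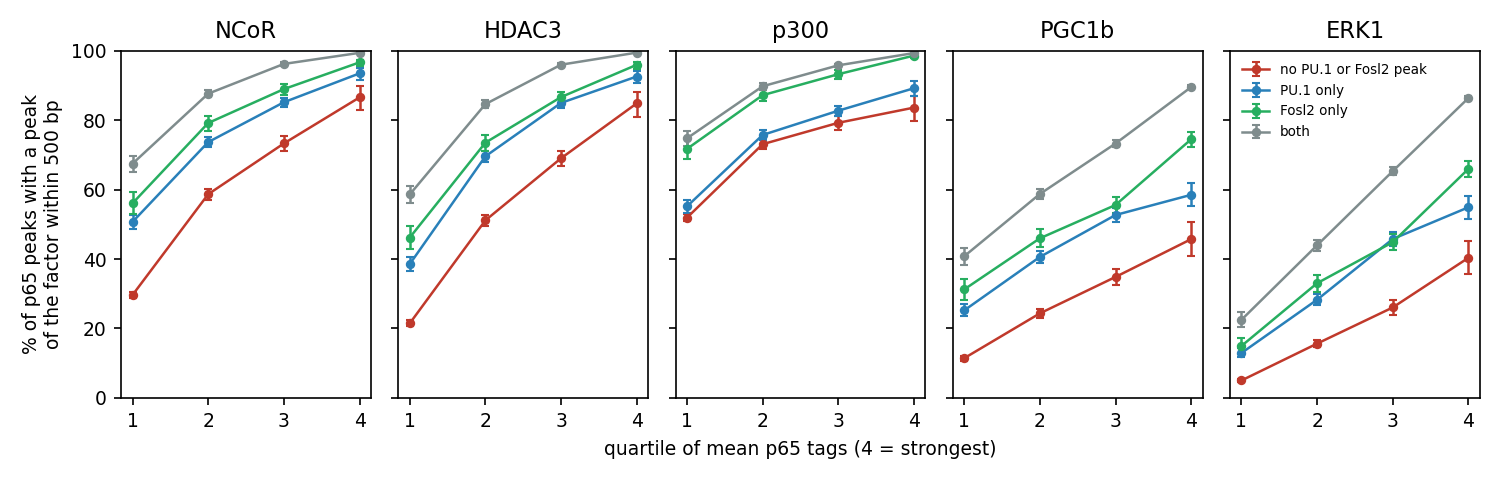
Share of p65 peaks with a peak of NCoR, HDAC3, p300, PGC1b (PGC1β) or ERK1 within 500 bp, in percent (vertical axis), by quartile of mean p65 tags (horizontal axis, 4 the strongest) and by class of p65 peak (colours). Bars are 95% binomial intervals. The red line, for peaks lacking PU.1 and Fosl2, rises from 29.6% to 86.6% for NCoR and from 51.9% to 83.6% for p300 and lies lowest in every panel.

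The combinations differed too. None of the 5 factors had a peak near 3092 of the peaks lacking PU.1 and Fosl2 (21.6%), against 8.27% with PU.1 only, 3.06% with Fosl2 only and 1.14% with both. All 5 were near 440 (3.08%), against 57.3% with both. NCoR and HDAC3 were both near 31.3%, and p300 was near 25.3% together with them. p300 without NCoR or HDAC3 was found at 3360 peaks (23.5%), against 9.38%, 8.02% and 2.29% in the other 3 classes.

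The shares differed by position and by the change of p65. An NCoR peak was near 47.2% of distal peaks where p65 rose and 6.54% of those where it fell, and for p300 the shares were 71.3% and 10.7%. At proximal peaks where p65 fell, 25.2% had an NCoR peak, 19.1% an HDAC3 peak and 25.8% a p300 peak. PGC1β did not follow this order, with a peak near 15.1% of distal peaks where p65 rose and 12.7% of those where it fell, and near 18.6% and 28.6% of proximal ones. ERK1 was near 14.5% of proximal peaks where p65 rose and 18.9% of those where it fell, with overlapping 95% intervals. Open chromatin, taken as a region of the H3K27ac table of the NCoR flox/flox experiment, was near 12.9% of all peaks lacking PU.1 and Fosl2, near 4.28% of the distal ones and near 52.2% of the proximal ones.

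NCoR, with KLA, rose at most of its peaks next to those lacking PU.1 and Fosl2. The median NCoR signal was 9.56 and 11.8 tags per 10 M with Veh and 30.0 and 30.4 with KLA. The KLA libraries lay above the Veh libraries, while at p65 peaks with both PU.1 and Fosl2 the 4 medians were 69.3, 83.6, 72.1 and 70.6 and overlapped. With Fosl2 only they were 20.3, 23.5, 50.2 and 50.5, and 52.2% of NCoR peaks rose there. Of 6420 NCoR peaks tested near the peaks lacking PU.1 and Fosl2, 3376 rose (52.6%, beside 23.4% of all NCoR peaks) and 212 fell (beside 16.7%, or 40.1% in either direction), with a median log2 fold change of 1.55 against 0.10 over all. With TMM the counts were 3445 and 227. Of the distal ones 3029 of 5185 rose, and of the proximal ones 351 of 1242. Near p65 peaks that rose, 3136 of 4755 NCoR peaks rose (66.0%), against 32.4% with PU.1 only, 66.6% with Fosl2 only and 28.4% with both. Near p65 peaks that fell, 57 of 153 NCoR peaks fell (37.3%), against 53.5%, 49.0% and 76.6%. Without KLA replicate 1 the calls near these peaks numbered 1046 and without KLA replicate 2 they numbered 930.

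HDAC3 moved in the same direction. The median HDAC3 signal was 13.1 and 13.8 with Veh and 34.0 and 50.9 with KLA. Of 5346 HDAC3 peaks 3410 rose (63.8%, beside 27.5% of all) and 83 fell (beside 11.3%, or 38.8% in either direction), with a median of 1.74 against 0.27, and with TMM 3264 and 129. Near p65 peaks that rose, 3167 of 3960 rose (79.97%), against 39.4% with PU.1 only, 73.4% with Fosl2 only and 32.1% with both. KLA replicate 2 held 5.69 M tags with 46.5% of them in HDAC3 peaks, and its part in the spread was not tested. Without Veh replicate 1 the calls numbered 1999 and without Veh replicate 2 they numbered 1963.

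p300 showed the highest share of rises. Its Veh libraries are labelled with an earlier time than its KLA libraries, and the part of this difference in the calls was not tested. Its median signal was 5.64 and 5.26 with Veh and 32.2 and 31.9 with KLA, so that the KLA libraries stood far above the Veh libraries. Of 8986 p300 peaks 6978 rose (77.7%, beside 42.1% of all) and 259 fell (beside 12.9%, or 54.9% in either direction), with a median of 2.61 against 0.65, and with TMM 6156 and 616. At distal sites 6536 of 7795 rose and at proximal sites 446 of 1196. Near p65 peaks that rose, 6348 of 7054 rose (89.99%), against 49.0% with PU.1 only, 90.5% with Fosl2 only and 53.3% with both. Near p65 peaks that fell, 86 of 180 fell (47.8%), against 60.4%, 54.8% and 72.5%.

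At p65 peaks with Fosl2 only the shares that rose were 58.4% for HDAC3, 75.9% for p300, 54.9% for PGC1β and 29.1% for ERK1, and with PU.1 only they were 19.4%, 25.1%, 12.1% and 4.74%.

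PGC1β and ERK1 gave fewer calls. PGC1β medians were 9.99 and 10.7 with Veh and 22.9 and 17.2 with KLA, and 1024 of 2669 peaks rose (38.4%, beside 16.4% of all) and 81 fell (beside 6.35%, or 22.8% in either direction). Without Veh replicate 1 the calls numbered 586 and without Veh replicate 2 they numbered 545. ERK1 medians were 12.6 and 10.4 with Veh and 23.4 and 21.8 with KLA, and 300 of 1632 peaks rose (18.4%, beside 10.3% of all) and 20 fell (beside 2.53%, or 12.9% in either direction). Without KLA replicate 1 only 30 calls were made and without KLA replicate 2 only 39. The KLA libraries lay above the Veh libraries for both factors.

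**Figure D5:**
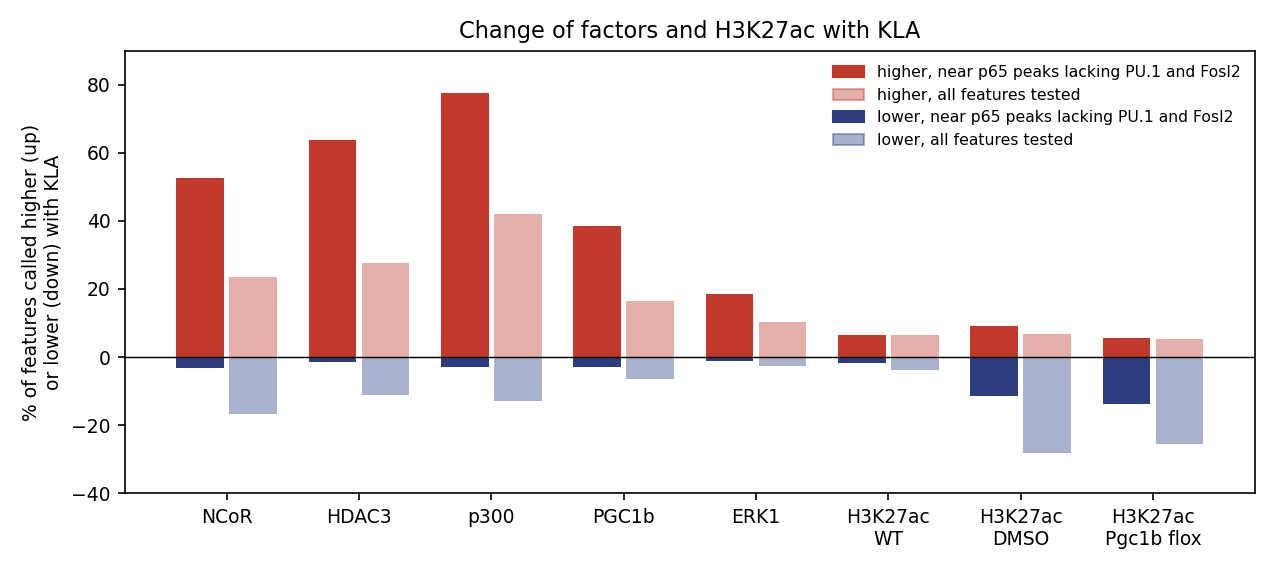
Share of features called higher (above 0) or lower (below 0) with KLA, in percent (vertical axis), for 5 factors and for H3K27ac in 3 experiments (horizontal axis), with full colour for features near p65 peaks lacking PU.1 and Fosl2 and pale colour for all features tested. The full bars for NCoR, HDAC3 and p300 reach 52.6%, 63.8% and 77.7%, and for H3K27ac of the WT cells the full and pale bars are alike (6.37% and 6.49%). The bars pool all positions. Near distal p65 peaks 12.9% of the WT H3K27ac regions rose, beside 7.90% of all distal regions, and near proximal ones 5.27%, beside 5.26%.

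At several of the named sites NCoR, HDAC3 or p300 rose where p65 did. At the Crkl intron NCoR was at 4.78, 3.53, 88.3 and 78.9 tags per 10 M, HDAC3 at 4.36, 4.42, 74.4 and 158, and p300 at 1.25, 3.29, 71.6 and 98.4. At the Cfb promoter p300 was at 3.13, 3.29, 144 and 133 and HDAC3 at 0, 0, 83.2 and 135. At the Nfkbiz peak NCoR was at 1.19, 0, 108 and 96.1. Each of these factors had both KLA libraries above both Veh libraries. At the Lpl intron NCoR had 26.3, 17.7, 85.0 and 88.5 and p300 8.15, 17.7, 159 and 132. Not every rise of p65 came with one of NCoR. At the Tnip1 exon NCoR was at 20.3, 81.2, 77.8 and 62.9 and was not called (adjusted p = 0.45, edgeR), nor was it at Ptpn23, Sod2, Icosl or Foxp4 (adjusted p = 0.33, 0.21, 0.20 and 0.069, edgeR). The p300 signal at Ptpn23 was not called either (log2 fold change -0.04).

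Of the named peaks where p65 fell, the Ralgapb promoter had an NCoR signal of 37.0, 29.4, 38.1 and 31.8. The Ythdf1 promoter had an NCoR signal of 9.56, 22.4, 29.2 and 22.1 and an HDAC3 signal of 21.1, 22.7, 27.5 and 50.9. The NCoR signals overlapped between Veh and KLA at both promoters, and none of these changes was called. The promoters of Kifap3 and Ier5l and the intergenic peak near Sp3 had no NCoR, HDAC3 or p300 peak within 500 bp.

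The features with the lowest p-values near these peaks were as follows. NCoR rose most clearly near Sox5os3, at 0, 1.18, 133 and 147 (1 Veh tag, ratio 237, interval 42.3 to 9394), and HDAC3 in the Gm5544 intron, at 0, 0.553, 88.5 and 167 (ratio 344, interval 61.2 to 13645). Both fell most clearly next to a p65 peak at -1456 bp from the TSS of Npas2, a circadian factor. NCoR was there at 429, 443, 12.2 and 14.5 (log2 fold change -5.01 ± 0.24, adjusted p = 2.34e-05) and HDAC3 at 214, 215, 7.03 and 3.51 (-5.15 ± 0.49, adjusted p = 2.85e-23). The p65 peak at Npas2 was weak, at 15.8, 13.1, 1.34 and 6.84. p300 fell most clearly in an intron of Lgals3, which encodes galectin-3, at 67.7, 74.9, 1.53 and 5.40 (-4.35 ± 0.45, adjusted p = 5.21e-07).

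p300 rose most clearly near Pabpc2, a gene for a poly(A)-binding protein, at 0.627, 0, 194 and 190 (1 Veh tag, ratio 599, interval 107 to 23685).

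H3K27ac was measured only over regions open in macrophages, so most of these p65 peaks had no value. In the NCoR flox/flox cells 1916 regions lay near them, of which 1444 were tested. Their median H3K27ac signal was 11.3 and 12.2 with Veh and 13.2 and 13.8 with KLA, with the distal regions at 2.52, 3.06, 3.14 and 4.14 and the proximal ones at 17.0, 17.3, 19.5 and 20.7. The KLA libraries were slightly above the Veh libraries in all 3 sets. With KLA, 92 regions rose (6.37%, beside 6.49% of all) and 26 fell (1.80%, beside 3.72%, or 10.2% in either direction), with a median log2 fold change of 0.22, and with TMM 67 rose and 50 fell. Near the distal p65 peaks 27 of 210 regions rose (12.9%, beside 7.90% of all distal regions) and 3 fell (1.43%, beside 5.10%). Near the proximal ones 65 of 1234 rose (5.27%, beside 5.26% of all proximal regions) and 23 fell (1.86%, beside 2.52%). Near p65 peaks that rose, 45 of 213 regions rose (21.1%), against 15.7% with PU.1 only, 20.8% with Fosl2 only and 13.9% with both. Near p65 peaks that were not called, 43 of 876 rose (4.91%), against 4.37%, 3.23% and 4.19%. Without Veh replicate 1 the calls numbered 73 and without Veh replicate 2 they numbered 62.

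The clearest gain of H3K27ac was in an intron of Ehd1, an endocytic recycling ATPase, at 34.0, 34.1, 172 and 186 (chr19:6291013-6291880; log2 fold change 2.39 ± 0.21, adjusted p = 3.47e-12). The clearest loss was at the promoter of Trim59, a ubiquitin ligase, at 24.6, 32.6, 1.26 and 1.38 (-4.37 ± 0.68, adjusted p = 4.64e-06). H3K27ac also rose at the promoters of Dusp16 (30.3, 40.7, 106 and 123, adjusted p = 1.84e-07) and Usp18 (18.3, 16.8, 42.1 and 71.0, adjusted p = 0.000109), where p65 was not called. In all 4 the groups did not overlap.

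In the NKO cells H3K27ac differed from WT at few of these regions. With KLA, NKO cells had medians of 13.8 and 13.9, within 1 tag per 10 M of the WT cells with KLA, whose libraries also enter the comparison of KLA with Veh, and 7 regions were called higher (0.4% of all regions were) and 2 lower (0.389% of all, or 0.789% in either direction), by edgeR's quasi-likelihood test. The calls numbered 5 without NKO KLA replicate 1 and 3 without NKO KLA replicate 2.

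In the DMSO and RGFP966 experiment, windows of 1000 bp had been placed on regions open in Veh cells, so induced sites closed at rest were not measured. Near the peaks lacking PU.1 and Fosl2 the medians were 49.8 and 51.5 with DMSO and Veh, 51.2 and 41.2 with DMSO and KLA and 40.2 and 34.5 with RGFP966 and KLA. With DMSO the Veh and KLA libraries overlapped, and both RGFP966 libraries were below both DMSO libraries with KLA. KLA raised H3K27ac at 141 of 1558 windows (beside 6.73% of all) and lowered it at 180 (beside 28.1% of all), and with TMM at 251 and 78. The comparison of RGFP966 shares its DMSO and KLA libraries with that of KLA. RGFP966 raised it at 179 (beside 26.9% of all) and lowered it at 332 (beside 9.53% of all), and with TMM at 108 and 597. These shares mix distal and proximal windows. For KLA with DMSO, 64 of 395 distal windows near these peaks rose (16.2%, beside 7.65% of all distal windows). At 70 the signal fell (17.7%, beside 36.7%). Of the proximal ones 77 of 1165 rose (6.61%, beside 5.32% of all proximal windows) and 110 fell (9.44%, beside 14.7%). For RGFP966 the positions are given apart below.

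With RGFP966 the signal was higher at distal windows and lower at proximal ones. At distal windows the medians were 12.3 and 11.8 with DMSO and KLA and 22.4 and 21 with RGFP966 and KLA, and 145 of 395 were higher and 7 lower (median log2 fold change 0.72). At proximal windows they were 79.6 and 59.3 against 49.4 and 42.0, and 34 of 1165 were higher and 325 lower (median -0.66). Near the peaks lacking PU.1 and Fosl2, 36.7% of distal windows were higher, beside 40.1% of all distal windows (6104 of 15209, with 104 lower). Of the proximal windows near these peaks 27.9% were lower, beside 23.2% of all proximal windows (2284 of 9836, with 645 higher). With TMM the counts near the peaks lacking PU.1 and Fosl2 were 91 higher and 24 lower for distal windows and 17 and 573 for proximal ones.

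In the PGC1b flox/flox cells the medians near these peaks were 83.0 and 81.7 with Veh and 64.9 and 63.3 with KLA, and 49.8 and 49.2 in the PGC1b flox/flox, LysMCre cells with KLA. The 3 groups did not overlap. KLA raised H3K27ac at 84 of 1542 windows (beside 5.22% of all) and lowered it at 214 (beside 25.6% of all), and with TMM at 150 and 90. Near distal p65 peaks 42 of 365 windows were raised (11.5%, beside 6.52% of all distal windows) and 77 lowered (21.1%, beside 32.0%). Near proximal ones 42 of 1179 were raised (3.56%, beside 3.23% of all proximal windows) and 138 lowered (11.7%, beside 15.9%). Among windows near p65 peaks that rose, 51 of 242 were raised (21.1%), against 15.5% with PU.1 only, 20.2% with Fosl2 only and 16.4% with both. Near p65 peaks that fell, 74 of 275 were lowered (26.9%). This share pools positions, and lies between the 32.0% of all distal windows and the 15.9% of all proximal windows that were lowered. With PU.1 only, Fosl2 only and both, 39.2%, 34.0% and 60.8% were lowered there. With KLA the Cre cells were higher at 2 windows (beside 0.702% of all) and lower at 49 (beside 6.81% of all, or 7.52% in either direction), and with TMM higher at 17 and lower at 7, so the direction of these calls depended on the scale. This comparison and that of KLA share the PGC1b flox/flox libraries with KLA.

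Over the whole series the count tables used here held 54 libraries. The p65 libraries had 10.7 to 14.97 M tags, and the log2 signals of the 2 replicates correlated over these peaks with r = 0.678 for Veh and 0.896 for KLA (across peaks, which are not independent). The Fosl2 libraries were shallower (4.30 to 9.54 M), and a Fosl2 peak missed at that depth would leave a p65 peak among those described. The labelled cell type was checked by H3K27ac within 2 kb of marker TSSs. Of 8 macrophage markers 5 had a region, with 217 to 363 tags per 10 M summed per library and Spi1 alone at 125 to 232. Csf1r, Adgre1 and Lyz2 had none. The T cell, B cell, neutrophil and fibroblast markers had 0 regions. Since only regions open in macrophages were counted, a missing region says little about other cell types. Of the erythroid markers 1 of 4, Klf1, had a region, with 0 to 7.96 tags per 10 M.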

How the data were processed

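ChIP-seq reads were aligned to mm10 with Bowtie2 by the authors, and HOMER was used to call peaks, filtered for reproducibility between replicates (irreproducible discovery rate) and merged from the conditions. The versions of these programs were not given in the sources used here. The authors deposited raw tag counts per region (HOMER, no normalization, at most 3 tags per position), and 11 of 15 tables with 54 libraries of 100 samples were used. The other 4 tables (osteoclast precursors and an ERK inhibitor) and the input libraries were not analysed here. Factor chromatin was fixed with disuccinimidyl glutarate and formaldehyde, and H3K27ac chromatin with formaldehyde alone. H3K27ac was counted over ATAC-seq regions, as given for the NCoR flox/flox table and in 1000 bp windows for the other tables. Regions induced from closed chromatin are therefore under-represented.

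Samples were grouped by their labels, with 2 libraries per group described as biological replicates. Where nothing else separates them, p-values measure only the spread between these libraries. Counts were divided by the library totals in the file headers (tags per 10 M). In each table, features with at least 4 tags in 1 library (16 for H3K27ac) entered a two-sided quasi-likelihood test in edgeR 4.0.16 under R 4.3.3. Calls needed a Benjamini-Hochberg adjusted p under 0.05 over all features of the table and more than a 2-fold change, in 12 comparisons. For single values an exact permutation test of 2 against 2 cannot go below 0.333. Where a group held 1 to 3 tags, ratios were given with exact 95% counting intervals. Shares have Clopper-Pearson intervals. PCR duplicates are not independent molecules, so all intervals cover counting error only.

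Peaks were matched by centre distance (500 bp). Motifs were searched in mm10 in windows of 200 bp with pysam 0.24.0, and 1 peak off the reference chromosomes was left out. Of the p65 peaks, 52624 of 52629 lay inside the reference chromosomes. Named peaks were the 8 with the highest mean p65 signal, the 6 rises and 4 falls with the lowest p-values, up to 3 per gene list (9 lists) with the most KLA tags, and the features of NCoR, HDAC3, p300 and H3K27ac nearby that rose or fell with the smallest p. The peaks and lists were chosen with earlier results of these data known. The fit was tested on simulated data. Alternatives were TMM scaling, DESeq2 1.42.0 (Wald test), no filter, a replicate block, each library left out, rule distances of 500 and 2000 bp, match distances of 100 and 1000 bp, distal peaks only and quartiles of strength. Python 3.11.15, pandas 2.3.3, numpy 2.4.6, scipy 1.17.1 and matplotlib 3.10.9 were used.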

Additional observations from a re-analysis of the deposited data

How the results depend on the processing

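With 2 libraries per group, counts of calls depended on single libraries. Leaving out each library in turn gave 4064 to 11590 calls for p65 at the peaks lacking PU.1 and Fosl2. Near them it gave 930 to 4208 for NCoR, 1963 to 3840 for HDAC3, 5591 to 7287 for p300, 545 to 1389 for PGC1β and 30 to 372 for ERK1. For H3K27ac it gave 62 to 116 with KLA in WT cells, 3 to 8 for NKO against WT, 286 to 355 with DMSO, 382 to 600 for RGFP966, 280 to 298 in PGC1b flox/flox cells and 56 to 66 for Cre against flox. The lone library of a group was then assumed to vary like the others. Most of these p65 peaks hold few Veh tags, which limits the precision of their folds.

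Other settings that moved a count of calls by over 1.5 times were as follows, and the cause was not tested unless the setting itself leaves fewer peaks. Distal peaks alone left 30 calls for H3K27ac in WT cells, 4 for NKO, 134 with DMSO, 152 for RGFP966, 119 in PGC1b flox/flox cells and 26 for Cre against flox. H3K27ac in WT cells gave 74 calls with a rule distance of 2000 bp and 74 with a match distance of 100 bp. NKO against WT gave 15 without a filter and 14 with a rule distance of 500 bp. Cre against flox gave 24 with TMM and 15 with DESeq2. The share of peaks with an NCoR peak was 42.4% and 47.1% with match distances of 100 and 1000 bp, that with HDAC3 35.6% and 39.4%, with p300 59.5% and 64.4%, with PGC1β 16.6% and 21.3% and with ERK1 9.45% and 12.9%. With rule distances of 500 and 2000 bp NCoR was at 45.8% and 43.8% and HDAC3 at 38.6% and 36.2%, and with 500 bp ERK1 was at 12.4%. From the weakest to the strongest quartile the shares were 29.6%, 58.7%, 73.3% and 86.6% for NCoR, 21.5%, 51.1%, 69.0% and 84.8% for HDAC3, 51.9%, 73.1%, 79.2% and 83.6% for p300, 11.4%, 24.3%, 34.8% and 45.7% for PGC1β and 4.99%, 15.6%, 26.04% and 40.3% for ERK1. At distal peaks HDAC3 was at 36.2%, p300 at 65.6%, PGC1β at 16.7% and ERK1 at 9.12%.

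Of 49 named p65 changes, 40 kept direction and call with TMM, 39 with DESeq2 and 49 without a filter. Changes turned negative with TMM and DESeq2 at Dusp16 (-0.52 and -0.49), Usp18 (-0.57 and -0.53), Jund (-0.62 and -0.59) and Ptpn23 (-0.079 and -0.046). The uncalled change at Trp53 was between -0.26 and 0.082 when single libraries were left out, above 0 without Veh replicate 2 and without KLA replicate 1.

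Replicate numbers are shared between groups, and the labels do not say whether they mark shared mice or days. Deviations of same-numbered libraries did not correlate (r from -0.013 to 0.026), which cannot settle this, and the libraries were treated as unpaired. With the replicate number as a block, ERK1 gave 153 calls near these peaks. The block gave 8733 calls for p65, 3028 for NCoR, 3438 for HDAC3 and 6946 for p300, and the p65 calls at Npas2, Trim59 and Lgals3 were not made (adjusted p 0.169, 0.0558 and 0.212, edgeR). It moved no other count by over 1.5 times.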

Other observations

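Some families of transposable elements held many of the p65 peaks lacking PU.1 and Fosl2. The young L1 family L1Md_F2 held 123 of these peaks and 23 of the other p65 peaks, and p65 rose with KLA at 122 of the 123. Their median p65 signal was 0.876 and 0.932 tags per 10 M in the Veh libraries and 31.4 and 33.5 in the KLA libraries, 73 had a p300 peak and 17 an NCoR peak, and 4.88% held the strict NFκB consensus. The LTR family LTRIS_Mm held 37 of these peaks and 16 others. p65 rose at all 37, with medians of 0 and 0 with Veh and 32.1 and 33.5 with KLA, 34 had a p300 peak and 11 an NCoR peak, and 75.7% held the strict NFκB consensus. The SINE family B2_Mm2 held 43, of which 15 rose and 17 fell. Reads of near-identical copies can be placed at the wrong copy, and how far this touched these counts was not tested. The families were picked out after their values were seen.

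The octamer ATGCAAAT went along with the rise of p65. It was in 5.25% of the peaks lacking PU.1 and Fosl2 and in 3.60% of all p65 peaks. With Fosl2 only the share was much the same, at 5.21%, with PU.1 only 2.02% and with both 2.81%. Of the distal peaks lacking PU.1 and Fosl2 it was in 6.89% that rose, 1.03% that fell and 1.86% not called. At the proximal ones these shares were 7.17%, 0% and 1.14%. Among the 699 that held the octamer without the strict NFκB consensus, p65 rose at 92.3%, among the 1496 with the consensus alone at 88.0%, and among the 12045 with neither at 66.7%. For the other p65 peaks the shares were 88.4%, 73.4% and 49.3%. Median p65 with Veh was 2.63 and 2.80 tags per 10 M at the peaks with the octamer alone and 5.25 and 5.59 at those with neither.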
